A study of Bos taurus with 4 samples.

Results

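Chromatin accessibility at the genes of the mitochondrial carrier family was examined in rumen epithelial primary cells (REPC) of cattle by ATAC-seq, a method that reads open chromatin from the sites where a transposase can insert adapters. The family was taken as every gene named in the deposited table of listed intervals whose symbol began with SLC25A, or was UCP followed by a digit. The rule found 46 of the 24886 gene names in the table. These genes were linked to 776 of 362102 intervals, which merged into 244 of 115970 regions.

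Mitochondrial carriers are small membrane proteins that move metabolites, nucleotides, cofactors and ions across the inner membrane of the mitochondrion, each usually exchanging one substrate for another. They connect ATP export, the citric acid cycle, amino acid breakdown and fatty acid oxidation with the cytosol, and the uncoupling proteins of the same family let protons leak back into the matrix. Rumen epithelium takes up butyrate and oxidizes much of it in mitochondria, and butyrate also inhibits histone deacetylases.

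A single male calf of the Holstein breed, 2 weeks of age and on milk replacer as its sole feed, was the donor, and the cultured cells received 5 mM butyrate for 24 h or none. The series held 4 libraries in 2 pairs. The labels disagree about the treated pair. The library names that the values carry call the first pair Control and the second BT, whereas the titles and the treatment field give butyrate for the first pair. The pairs are therefore called Control-named and BT-named, with 2 libraries each, and only the direction of a difference with respect to butyrate is contested. The study calls the libraries of a pair biological replicates, but the sources used here do not say whether they came from separate cultures of this calf's cells. The p-values therefore rest on the spread between these libraries, within 1 animal. The limma test used below also borrows variance from the other tested regions. Its standard errors and p-values are therefore not set by the spread of a region's own libraries alone.

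The libraries listed between 83391 and 98962 intervals, and log2 values of the 65892 regions listed in all 4 libraries correlated at 0.967 and 0.969 within the pairs and at 0.815 to 0.836 between them (Pearson's r; regions of a library are not independent of each other). Among markers of the labelled cell type, 9 of 12 epithelial genes had a listed promoter, among them the basal keratins KRT5 and KRT14. TP63, CDH1 and DSG3 had none, although CDH1 encodes the cadherin of epithelial junctions. A promoter was listed at 7 of 10 fibroblast and smooth muscle genes and at 2 of 10 endothelial and immune genes. Summed over the 8 epithelial promoters in all 4 libraries, the level was 681 and 793 in the Control-named and 840 and 871 in the BT-named libraries. Over the 3 such fibroblast and smooth muscle promoters it was 264 and 246 against 215 and 259.6. None of these 3, COL1A2, ACTA2 and THY1, was called. Their mean levels were 77.6, 140 and 37.6 in the Control-named and 70.6, 123 and 44.1 in the BT-named libraries. THY1 thus went the other way from COL1A2 and ACTA2, and it passed as higher after median centring alone. The promoters of KRT14, KRT18 and CLDN4 were higher in the BT-named libraries and that of KRT15 was lower, while DCN and DES, a fibroblast and a muscle gene, had a promoter listed in both Control-named libraries only. The epithelial keratin KRT19 had one in both BT-named libraries alone. KRT5, EPCAM and DSP were not called. Their mean levels were 85.5, 38.7 and 64.9 in the Control-named and 54.5, 27.6 and 53.9 in the BT-named libraries. KRT5 and EPCAM passed as lower only as deposited, with log2 fold changes of -0.63 and -0.48. KRT8, not called either, had means of 179 in the Control-named and 202 in the BT-named libraries. It passed as higher after median centring and after quantile normalization, but not as deposited. The median log2 fold change of the 8 epithelial promoters was -0.02 as deposited, so the rise of their sum was not shared by all. The part of a shift between cell types in the differences below was not tested, and in bulk libraries fewer cells of a type and less open chromatin per cell cannot be told apart.

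A promoter was a region with a summit within 1000 bp of the annotated gene start, and its level was the average value, which is the mean signal per base over the listed interval. The sources used here do not say how this signal was normalized between libraries, and the values are not counts. The read totals that the study lists were not used, so no counting error is given. A promoter is called higher or lower below only where limma, with Benjamini-Hochberg adjustment over all 65892 regions, gave an adjusted p under 0.05 in the same direction with the values as deposited, after median centring and after quantile normalization. Over all gene promoters the median log2 fold change, BT-named over Control-named, was -0.12 as deposited, 0.25 after median centring and 0.18 after quantile normalization, so small differences change sign with the scaling. Fold changes below are as deposited unless another scaling is named.

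Most carrier genes had a listed promoter in every library. Of the 46 genes, 39 had a listed promoter, and 36 had the same promoter region in all 4 libraries. SLC25A34 and SLC25A44 were higher in the BT-named libraries, SLC25A15 and SLC25A45 were lower, and the remaining 32 were not called. Over all 12871 gene promoters listed in all 4 libraries, 4.06% were higher and 4.72% lower, against 5.56% of the carrier promoters in each direction, so the shares of called carrier promoters were near the background. The scaling set the balance of calls. As deposited 2 carrier promoters passed as higher and 4 as lower, beside 4.06% and 20.5% of all gene promoters. After median centring 16 and 2 passed, beside 42.8% and 4.86%, and after quantile normalization 8 and 2, beside 31.3% and 5.74%. The median log2 fold change of the 36 promoters was -0.10 as deposited, 0.26 after median centring and 0.19 after quantile normalization, each within 0.02 of the median of all gene promoters.

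**Figure D1:**
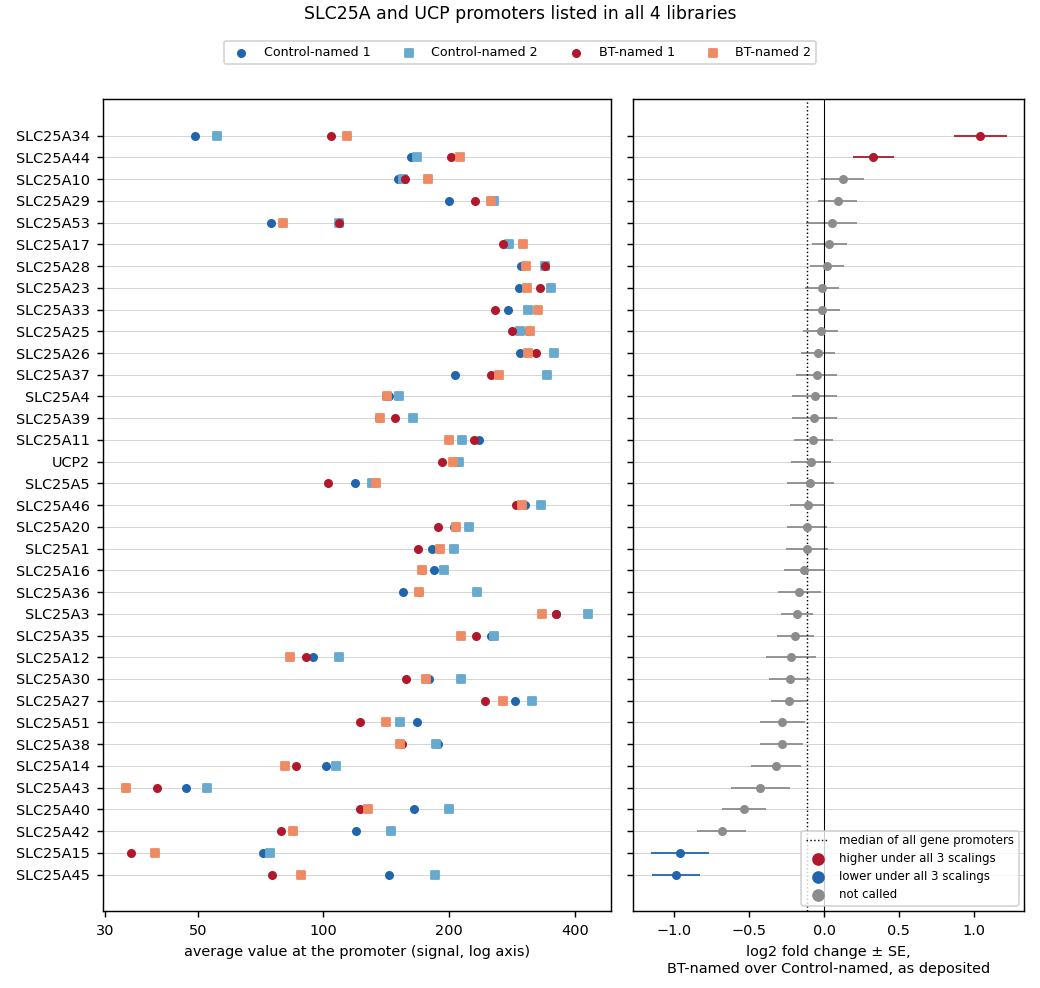
Average value of the carrier promoters in the 4 libraries, with 1 member left out, (left, signal on a log axis) and its log2 fold change with the standard error from limma (right, values as deposited). The genes are ordered by fold change, and SLC25A34 at the top and SLC25A15 and SLC25A45 at the bottom stand clear of the other promoters, which lie between -0.68 and 0.33.

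SLC25A34, a carrier whose substrate is not well established, gave the largest increase. Its promoter, a CpG island region on chromosome 16 at 53073882 to 53074659 (UMD3.1) with a summit 89 bp before the start, had average values of 49.3 and 55.7 in the Control-named libraries, against 104 and 114 in the BT-named ones. The groups did not overlap, and the means were 52.5 ± 4.54 and 109 ± 6.88 (SD, n = 2 each), a ratio of 2.08. The log2 fold change was 1.04 ± 0.18 (SE; limma adjusted p = 1.41e-07). Peak values at the summit separated in the same way, at 69 and 75 against 155 and 186. The interval was also longer, with 715 and 734 bp in the BT-named and 591 and 609 bp in the Control-named libraries.

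SLC25A44 encodes a carrier of branched-chain amino acids described in brown fat of mice and humans. Its promoter on chromosome 3 at 14644121 to 14645199 had average values of 162 and 168 in the Control-named and 203 and 212 in the BT-named libraries. The log2 fold change was 0.33 ± 0.14 (limma adjusted p = 0.0395). The peak value went the other way, with 391 and 424 in the Control-named against 376 and 377 in the BT-named libraries, a log2 fold change of -0.11 by limma. The listed interval was shorter in the BT-named libraries, at 646 and 584 bp against 949 and 1079 bp. The call at SLC25A44 thus held for the mean over the interval and not for the summit. It was lost without Control-named library 1, without BT-named library 1 and without BT-named library 2. With plain variance, which leaves out limma's trend and robust settings, it was lost as well.

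SLC25A45, a less studied carrier, gave the largest promoter decrease as deposited and after median centring, whereas SLC25A15 was lowest after quantile normalization. Its promoter on chromosome 29 at 44240739 to 44241243 held no annotated CpG island, unlike most carrier promoters, and had its summit 180 bp inside the gene. The average values were 143 and 185 in the Control-named and 75.2 and 88.2 in the BT-named libraries, with means of 164 ± 29.4 and 81.7 ± 9.21 (SD, n = 2 each). The 2 Control-named libraries lay apart from each other, yet both were above both BT-named libraries. The log2 fold change was -0.99 ± 0.16 as deposited (limma adjusted p = 4.81e-08). After median centring and quantile normalization it was -0.63 and -0.62 (highest limma adjusted p = 0.00128). The summit showed the same order, at 231 and 299 against 115 and 132.

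SLC25A15 encodes the ornithine carrier of the urea cycle, which exchanges cytosolic ornithine for mitochondrial citrulline. Its promoter on chromosome 12 at 21831181 to 21831678 had average values of 71.6 and 74.7 in the Control-named and 34.6 and 39.6 in the BT-named libraries. The groups did not overlap, and the log2 fold change was -0.96 ± 0.19 as deposited (limma adjusted p = 8.70e-06). After median centring and quantile normalization it was -0.60 and -0.71 (highest limma adjusted p = 0.00631). A second region, with its summit 1091 bp before the start and so just outside the promoter window, was lower as well, with 95.7 and 89.7 against 45.7 and 49.2 (log2 fold change -0.95). A further region 5373 bp inside the gene was lower at 112 and 117 against 61.0 and 62.6 (log2 fold change -0.88). The calls of the latter 2 regions were lost without Control-named library 1, whereas those at the promoters of SLC25A34, SLC25A45 and SLC25A15 were kept under every scaling, variance setting and left-out library that was run.

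In pattern over the 4 libraries, SLC25A15 and SLC25A45 were nearest to each other among the 36 promoters, at a distance of 0.22 between their centred log2 values. The nearest to SLC25A44 was SLC25A10 at 0.22. SLC25A34 had no close neighbour, and its nearest was SLC25A44 at 0.72. These genes were named for their changes over the same 4 libraries. The distances therefore largely restate those changes and are not a separate result.

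The next largest decreases passed the test for average values only as deposited. SLC25A42, a carrier of coenzyme A, had promoter values of 120 and 145 in the Control-named and 79.0 and 84.5 in the BT-named libraries, without overlap. Its log2 fold change was -0.68 as deposited, -0.32 after median centring and -0.30 after quantile normalization, with a limma adjusted p of 0.0608 in the centred fit. By peak value it was lower under all 3 scalings, at -0.92 as deposited (highest limma adjusted p = 0.0177). SLC25A40, a glutathione carrier whose promoter is shared with DBF4, had 165 and 200.4 against 122 and 128, and its log2 fold change was -0.54 as deposited but -0.18 under both other scalings. SLC25A10, the dicarboxylate carrier, had the largest positive fold change after SLC25A34 and SLC25A44, with 151 and 155 against 157 and 178. Its log2 fold change of 0.12 was smaller than its standard error of 0.14 as deposited, but it passed at 0.49 after median centring and at 0.47 after quantile normalization.

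Of the 36 promoters, the BT-named libraries were both above the Control-named in 3 and both below in 16, which is 8.33% and 44.4%, and the groups overlapped in 17. Over all gene promoters in all 4 libraries these shares were 12.7% and 43.2%.

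Of the carriers of ATP and phosphate, 5 had a promoter in all 4 libraries, and none of these promoters was called. SLC25A3, which brings phosphate into the matrix for ATP synthesis, had the highest promoter level of the family, with 360.3 and 431 in the Control-named and 361 and 334 in the BT-named libraries. SLC25A4, which exchanges ADP for ATP and is best known in muscle and heart, had 144 and 152 against 141 and 142. These values gave a log2 fold change of -0.06 as deposited but 0.30 after both other scalings. SLC25A5, the ADP/ATP carrier of proliferating cells, had 119 and 131 against 103 and 134 at the region nearest its start, a log2 fold change of -0.09 as deposited, 0.27 after median centring and 0.29 after quantile normalization. Of the remaining ADP/ATP carriers, SLC25A31, which is known from testis, had no listed promoter, and SLC25A6 was not analysed here. Among the ATP-Mg/phosphate carriers, which set the adenine nucleotide content of the matrix, SLC25A23 and SLC25A25 had fold changes of -0.01 and -0.02 on the log2 scale as deposited, and SLC25A41 had no listed promoter.

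Uncoupling proteins differed in whether a promoter was listed at all. UCP2, the form found in many tissues, had 209.8 and 211 in the Control-named and 192 and 204 in the BT-named libraries, without overlap. Its log2 fold change was -0.09 as deposited, 0.27 after median centring and 0.22 after quantile normalization, and it was not called under all 3. UCP3, the form of skeletal muscle, had a weak promoter region in the Control-named libraries only, with average values of 36.1 and 26.4, and no BT-named interval lay nearer than 7734 bp. This region was not listed with a minimum peak value of 40 in the place of the deposited lowest values of 21 to 22. UCP1, the proton leak protein of brown fat, had no listed promoter. The related carriers SLC25A14, SLC25A27 and SLC25A30 had log2 fold changes of -0.32, -0.23 and -0.23 as deposited, and none was called. After median centring these became 0.04, 0.13 and 0.13, and after quantile normalization 0.06, 0.0004 and 0.10.

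Among carriers of citric acid cycle intermediates no promoter was called in either direction. SLC25A1, which exports citrate for fatty acid synthesis, SLC25A10 and SLC25A11, the oxoglutarate carrier of the malate-aspartate shuttle, lay between -0.11 and 0.12 on the log2 scale as deposited. SLC25A21, the oxoadipate carrier of lysine and tryptophan breakdown, had no promoter within 1000 bp. Its nearest region lay 1316 bp inside the gene at a CpG island, with 68.7 and 70.7 against 39.0 and 43.3. The log2 fold change there was -0.75 as deposited, and the region was not called under all 3 scalings.

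The aspartate and glutamate carriers included promoters that differed in listing. SLC25A12 was not called, at -0.22 on the log2 scale as deposited, 0.14 after median centring and 0.16 after quantile normalization. SLC25A13, its liver counterpart in the malate-aspartate shuttle, had a promoter region in the BT-named libraries only, with average values of 43.7 and 38.2 and a summit 863 bp before the start, and the nearest Control-named interval lay 1429 bp away. It fell outside a promoter window of 500 bp. SLC25A22, a glutamate carrier, had a region 42 bp from its start that was listed in Control-named library 1 at 91.3 and in BT-named library 2 at 90.1. A second region at 618 bp was listed in the BT-named libraries only, at 117 and 102, and lay 231 bp from a Control-named interval. Another, 1046 bp before the start, was listed in the Control-named libraries only, at 94.8 and 94.1. Where listed, these regions had similar levels. Absence from a list does not mean absence of signal.

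Over all 14804 genes with a listed promoter, 1.58% had it only in the BT-named pair and 3.14% only in the Control-named pair. Among the 39 carrier genes there was 1 of each.

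Of the amino acid and carnitine carriers, SLC25A44 was higher and SLC25A15 lower. SLC25A20, which carries acylcarnitines into the matrix for fatty acid oxidation, had 206 and 223 against 188 and 208, a log2 fold change of -0.11 with overlapping groups. SLC25A38, the glycine carrier needed for haem synthesis, had 188 and 186 against 154 and 153. Its groups did not overlap, but the log2 fold change of -0.28 did not pass as deposited. It became 0.08 after median centring and 0.06 after quantile normalization. SLC25A29, a carrier of basic amino acids, had 200.4 and 256 against 231 and 252 at the region nearest its start. A second promoter region of SLC25A29, shared with the microRNA gene MIR345, had 127 and 140.4 against 91.8 in both BT-named libraries, and passed as deposited (log2 fold change -0.53) but not under all 3 scalings. SLC25A2, the second ornithine carrier, had no listed promoter.

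All 10 carriers of cofactors and nucleotides that the table named had promoters in all 4 libraries, and none of these promoters was called. Their log2 fold changes ran from -0.68 at SLC25A42 to 0.04 at SLC25A17, a peroxisomal member. SLC25A26, which carries S-adenosylmethionine, had 295 and 357 against 323 and 309. It was among the 3 highest promoters of the family, its groups overlapped, and its log2 fold change of -0.04 as deposited became 0.32 after median centring. The iron carriers SLC25A28 and SLC25A37 had fold changes of 0.02 and -0.05 on the log2 scale as deposited. At SLC25A37, the mitoferrin of red cell precursors, the Control-named libraries alone spanned 207 to 344.

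Of the less studied members SLC25A34 was higher and SLC25A45 lower. SLC25A43 had the lowest mean level of the 36 promoters listed in every library, with 46.8 and 52.6 against 40 and 33.6, and was not called. SLC25A46, an outer membrane protein that acts in mitochondrial shape, had 304 and 331 against 289 and 300. SLC25A47 and SLC25A48 had no listed promoter, which brought the members without one to 7. The symbols SLC25A18, SLC25A24, SLC25A32 and SLC25A52 were not analysed here.

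Most carrier promoters held an annotated CpG island, 31 of 36 or 86.1%, near the 82.9% of all gene promoters. The summit of 22 lay within 100 bp of the start, which is 61.1% against 52.5%. Only 4 lay at the start of another gene too, which is 11.1% against 27.7%. Their median average value was 184 against 142 over all gene promoters. These shares are descriptions with no test.

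Proteins that import and surround the carriers were compared in the same fit. Of 15 named genes of carrier import, TOMM20, a receptor of the outer membrane, was higher at 193 and 211 against 266 and 236. AGK, a subunit of the TIM22 complex that inserts carriers, was lower at 116 and 162 against 78.7 and 78.0, and 13 were not called. Of 19 tested genes of other mitochondrial transport, including the pyruvate carrier, the porins and the calcium uniporter, SFXN4 was lower at 163 and 176 against 96.4 and 109, and 18 were not called. Over all gene promoters 4.06% were higher and 4.72% lower under all 3 scalings. At TOMM20, AGK and SFXN4 the highest limma adjusted p over the scalings was 0.0403, 0.0232 and 0.0308. These calls were not followed under the other settings. None of 5 regulators of mitochondrial biogenesis, among them TFAM and ESRRA, was called under all 3 scalings. Their log2 fold changes ran from 0.01 to 0.15 as deposited, where none passed, and all 5 passed as higher after median centring and after quantile normalization, beside 42.8% and 31.3% of all gene promoters.

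Regions farther than 1000 bp from the start were listed less evenly than promoters. Each library listed between 40 and 42 of the 45 promoter regions of carriers, with group means of 41.0 ± 1.41 and 40.5 ± 0.71 (SD, n = 2 each). Of the 199 farther regions, the Control-named libraries listed 166 and 173, and the BT-named libraries 132 and 133. The means were 169.5 ± 4.95 and 132.5 ± 0.71, which is 21.8% fewer in the BT-named libraries, and the ranges did not overlap. The exact permutation test gave p = 0.333, the smallest that 2 libraries against 2 allow (two-sided), and p = 1.0 for the promoter regions. Over all regions, promoters included, the BT-named libraries listed 13.5% fewer.

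**Figure D2:**
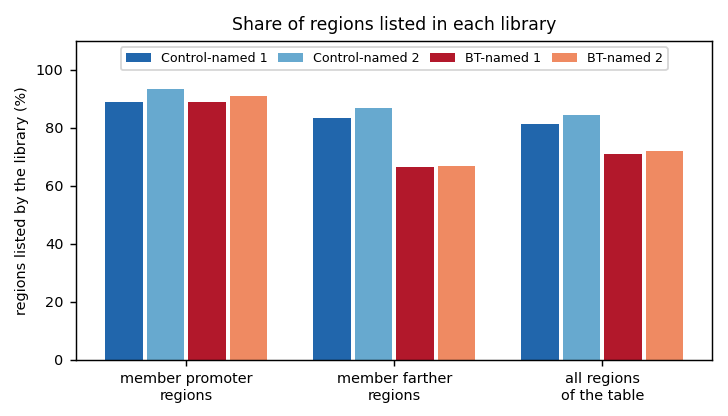
Share of regions listed by each library, in percent, for the 45 promoter and the 199 farther regions of carrier genes and for all 115970 regions. All 4 libraries listed from 88.9% to 93.3% of the promoter regions, whereas the BT-named libraries listed 66.3% and 66.8% of the farther regions against 83.4% and 86.9% in the Control-named libraries.

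Of the farther regions, 109 lay inside the gene, 41 before it and 49 after it, and 32 were at the promoter of another gene. All 4 libraries listed 114 of them. Both Control-named libraries alone listed 35, and both BT-named libraries alone listed 5. Among the 167 at no gene promoter, 20.4% were listed by the Control-named pair alone, against 14.2% of all 68554 such regions linked to a gene, and 2.40% by the BT-named pair alone, against 4.22%.

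This difference was uneven over the genes. SLC25A21 had 35 farther regions and SLC25A26 had 18, and together these genes held 15 of the 35 Control-named-only regions. Without them the 44 other genes had a mean of 128 farther regions in the Control-named and 109 in the BT-named libraries. This was 14.8% fewer, beside 13.5% over all regions, which include promoters. The matching value over the farther regions of all genes was not computed.

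**Figure D3:**
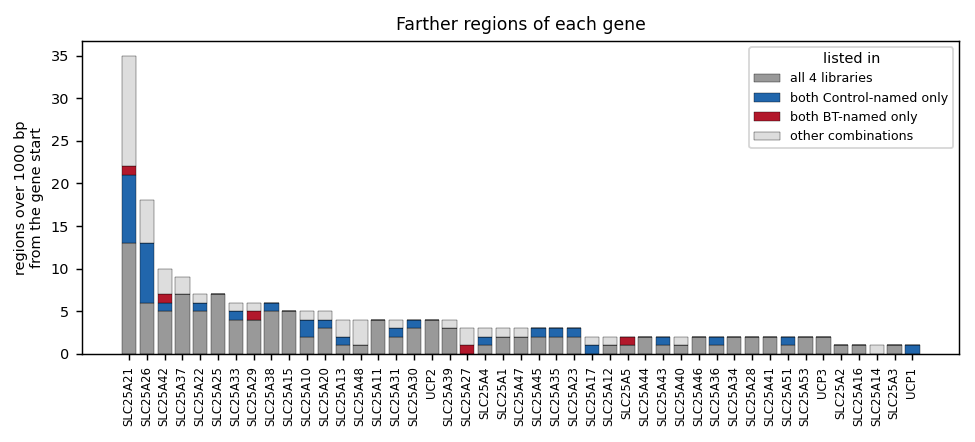
Number of farther regions per carrier gene, with 1 member left out, stacked by the libraries that listed them. SLC25A21 with 35 regions and SLC25A26 with 18 exceed all other genes, and SLC25A42 follows with 10.

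Among the 114 farther regions in all 4 libraries, 8 were higher in the BT-named libraries and 16 lower, which is 7.02% and 14.0%, against 6.89% and 20.0% of all 65892 regions. Of the 88 at no gene promoter, 5.68% were higher and 18.2% lower, against 6.4% and 23.1% of all such regions linked to a gene, so the shares at carrier genes were not above the background. As deposited alone 8 of the 114 passed as higher and 35 as lower, beside 6.9% and 39.4% of all regions. After median centring 36 and 17 passed, beside 30.2% and 20.4%, and after quantile normalization 28 and 18, beside 23.3% and 22.7%. Farther regions had lower levels than promoters, with a median of 102 against 192 in the Control-named libraries, and 29.8% held a CpG island.

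**Figure D4:**
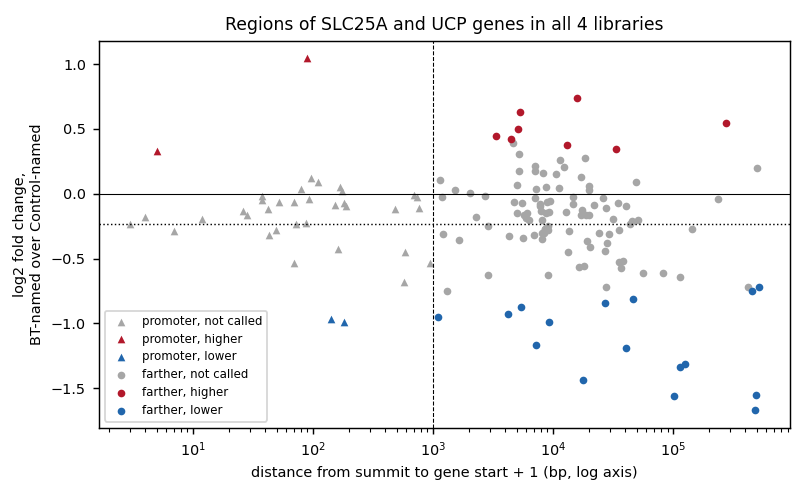
Log2 fold change as deposited of the carrier regions in all 4 libraries, with 1 member left out, against the distance of its summit from the gene start (log axis, the dashed line marks 1000 bp and the dotted line the median of all regions at -0.24). Regions called lower reach -1.67 at farther sites and -0.99 at promoters, and the highest value is the SLC25A34 promoter at 1.04.

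The largest decrease of the family lay inside SLC25A21 on chromosome 21. A region 485156 bp from the start, at 47347198 to 47347718, had average values of 118 and 130.1 in the Control-named and 40 and 36.7 in the BT-named libraries. The log2 fold change was -1.67 ± 0.18 as deposited (limma adjusted p = 4.08e-15). After median centring and quantile normalization it was -1.31 and -1.37 (highest limma adjusted p = 8.04e-07). Its neighbour 486724 bp from the start had 141 and 134 against 46.3 and 45.9 (log2 fold change -1.56). The region 125540 bp from the start had 102 and 103 against 50.3 and 32.8 (-1.31). Of the 13 regions of SLC25A21 in all 4 libraries 6 were lower and 6 were not called. The exception was a region 277572 bp from the start, at 47554792 to 47555386, which was higher with 172 and 179.6 against 251 and 264 (log2 fold change 0.55 ± 0.13, limma adjusted p = 0.000193). Thus regions of opposite direction lay inside the same gene. These 3 lower regions and the higher one kept their calls in every setting and with any library left out. The other lower regions of SLC25A21, with log2 fold changes from -0.92 to -0.72, each lost the call without 1 library or more. The region at 4228 bp lost it without Control-named library 1. That at 519652 bp lost it without BT-named library 2 and with plain variance. That at 452004 bp lost it without either Control-named library, without BT-named library 2 and with peak values.

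**Figure D5:**
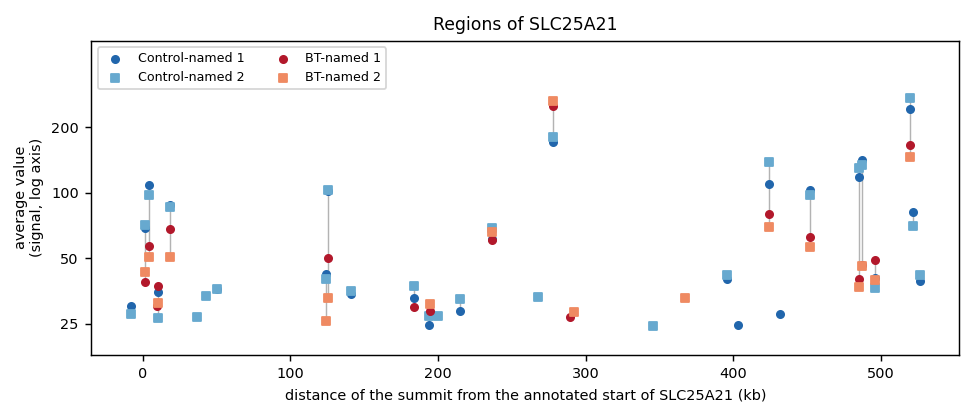
Average value (log axis) of the regions of SLC25A21 in each library against the distance of the summit from the annotated start in kb. The Control-named points lie above the BT-named points at the lower regions near 485 kb and 126 kb, and below them at the higher region near 278 kb, where the levels are 172 and 179.6 against 251 and 264.

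At SLC25A26 the promoter was not called, while 3 regions inside the gene were lower, each in every setting that was run. The region 101180 bp from the start, on chromosome 22 at 35228537 to 35229013, had 107 and 120.4 in the Control-named and 36.9 and 38.9 in the BT-named libraries, a log2 fold change of -1.56 ± 0.18 (limma adjusted p = 2.47e-13). After median centring and quantile normalization this fold change was -1.20 and -1.27 (highest limma adjusted p = 2.55e-06). Regions at 114044 bp and 40828 bp had log2 fold changes of -1.34 and -1.19 as deposited. A further 7 regions of SLC25A26 were listed by the Control-named pair alone and none by the BT-named pair alone.

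Single lower regions lay inside or near genes whose promoters were not called. At SLC25A33, a pyrimidine nucleotide carrier, a region 17947 bp inside the gene had 118 and 141 against 53.7 and 41.4 (log2 fold change -1.43), beside a promoter at -0.01. At SLC25A36, its close relative, a region 7269 bp inside the gene had 123 and 154 against 70.0 and 52.5 (-1.17). These 2 calls were kept in every setting that was run. At SLC25A3 a region 9219 bp away, downstream of the gene, had 66.1 and 74.8 against 29.5 and 41.3 (-0.99), and its call was lost without BT-named library 1. Regions of SLC25A25 at 27325 bp and of SLC25A53 at 46534 bp had -0.84 and -0.81, and both calls were lost without Control-named library 1, the latter also without either BT-named library. Only the SLC25A53 region among the 16 lower ones held an annotated CpG island.

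The 8 higher regions had log2 fold changes from 0.34 to 0.74 as deposited and from 0.70 to 1.10 after median centring. The 16 lower ones ran from -1.67 to -0.72 and from -1.31 to -0.36. A region 15817 bp downstream of the UCP2 start had 44.7 and 50.7 in the Control-named and 89.4 and 71.9 in the BT-named libraries (log2 fold change 0.74 ± 0.19, limma adjusted p = 0.000412), and its call was lost without BT-named library 1. Another 5290 bp from the SLC25A22 start, at the promoter of CEND1, had 97.8 and 116 against 163 and 169 (0.63) and kept its call in every setting. A neighbouring region at the same promoter, 4458 bp away, had 81.9 and 117 against 137 and 126 (0.42). Near SLC25A34 a region 5095 bp away, at the promoter of TMEM82, had 40.4 and 54.0 against 74.3 and 59.8 (0.50), so both called regions of SLC25A34 were higher.

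SLC25A42 held a higher region 3326 bp before its start, at 56.2 and 55.6 against 76.1 and 77.2 (0.45), whereas its promoter gave -0.68 as deposited. SLC25A4 had a higher region 13052 bp away at 108 and 126 against 156 and 147 (0.37), and SLC25A31 one at 33703 bp with 155 and 153 against 183 and 209 (0.34). The calls at 4458 bp from SLC25A22 and 5095 bp from SLC25A34 were each lost without BT-named library 1. Those of SLC25A42, SLC25A4 and SLC25A31 were lost without it as well. Each of these calls was also lost without at least 1 other library, and that of SLC25A42 whichever library was left out. With plain variance the calls at 4458 bp from SLC25A22, of SLC25A4 and of SLC25A31 were lost too. The SLC25A4 call was also lost with peak values, and that near SLC25A34 with the mean over several intervals.

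Regions listed in 1 group only were mostly weak. The 35 of the Control-named pair had group means from 25.9 to 173, with a median of 39.2, and the 5 of the BT-named pair ran from 28.9 to 111, with a median of 29.7. The strongest was 4162 bp inside SLC25A42, at 177 and 169 in the Control-named libraries, and lay 832 bp from the nearest BT-named interval. One 1488 bp inside SLC25A10, at 161 and 176, lay 91 bp from a BT-named interval. The strongest in the BT-named libraries was 1554 bp inside SLC25A29, at 113 and 109, and lay 1243 bp from a Control-named interval.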

How the data were processed

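REPC were profiled by ATAC-seq with paired reads of 42 nt in 4 libraries. Per the labels, the authors' processing notes name Trim Galore 0.4.1, BWA, MACS2 and the cattle build UMD3.1. The deposited signal values are the authors' own: a peak value at the summit and an average value over each listed interval, with nearby genes and CpG islands as the authors annotated them. The sources used here do not say how the signal was normalized, and the read totals that the study lists were not used. Summits fell on multiples of 32 bp in 92.2% of intervals.

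Intervals overlapping by at least 1 bp were merged into regions. Gene links were read from the gene, distance and position lists in step, and the highest value was used if several intervals of a library fell in 1 region. Log2(average value + 1) was fitted with limma 3.58.1 (R 4.3.3; trend and robust variance) over all regions listed in all 4 libraries, with BT-named over Control-named and no block, and the script was tested on simulated data. Fold changes on this scale understate changes of low values. Alternatives were other scalings, a pseudocount of 5, peak values, plain variance, a minimum mean of 30, a minimum peak of 40, an overlap of 100 bp, promoter windows of 500 and 2500 bp, a replicate block and leaving out each library. For genes with several promoter regions, the one listed in all 4 libraries with the highest mean average value was used.

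Named genes were those called under all 3 scalings, those with a promoter in 1 group only, the 3 largest changes and the 3 highest and lowest promoters in each direction, members without a promoter, up to 10 farther calls in each direction, the genes with most farther regions, and the ADP/ATP carriers and uncoupling proteins. Other genes were named to describe their substrate group. Members and lists were chosen with earlier results of these data known. All 46 names matched symbols or synonyms of RefSeq genes (assembly ARS-UCD2.0), of which no coordinates were taken. No sequences were analysed. The values of 1 member are not reported here, though it is included in the counts.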

Additional observations from a re-analysis of the deposited data

How the results depend on the processing

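Of the 28 regions called under all 3 scalings together, 28 were kept with a pseudocount of 5, with a minimum mean of 30 and with the replicate block, which made 29 calls in all. Peak values kept 25, plain variance 23, the mean over several intervals 27, and leaving out 1 library kept 17 to 26. Deviations of same-numbered libraries correlated at 0.029 over 65892 regions, which cannot show whether these libraries shared a culture or preparation. Among promoters, 2 were higher against 16 after median centring alone, 8 after quantile normalization alone, 1 with peak values and 1 with plain variance, and 1 to 3 with a library left out (3 without Control-named library 2). Promoters lower were 2 against 4 as deposited alone and 3 with peak values, which added SLC25A42. Farther regions higher were 8 against 36, 28 and 5 after median centring alone, quantile normalization alone and with plain variance, and 3 to 8 with a library left out. Farther regions lower were 16 against 35 as deposited alone, and 10 to 15 with a library left out, 10 being without Control-named library 1. The cause of these losses was not tested.

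The difference in promoter regions per library was -0.5 and became 0.5 without Control-named library 2, within -1.5 to 0.5 over the left-out libraries. That in farther regions, -37, ran from -40.5 to -32.5. Genes with a promoter in both BT-named libraries only were 1, and 0 with the 500 bp window, and 1 to 2 with a library left out (SLC25A22 was added without Control-named library 1). In both Control-named libraries only there was 1, and 0 with a minimum peak of 40.

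Of the 36 promoters, 23 were below 0 as deposited and above 0 after median centring, and 22 after quantile normalization, as were 52 and 42 of the 114 farther regions. Regions called under all 3 scalings cannot be among them, since a call requires the same direction in each. Of the named promoters, SLC25A44 changed sign with peak values (-0.11). After median centring alone the values were 0.32 at SLC25A26, 0.18 at SLC25A3, 0.30 at SLC25A4, 0.27 at SLC25A5 and 0.27 at UCP2. After quantile normalization alone the values were 0.17 at SLC25A26, 0.30 at SLC25A4, 0.29 at SLC25A5 and 0.22 at UCP2. SLC25A26 also gave 0.0024 with peak values and -0.18 to 0.097 over the left-out libraries, 0.097 being without Control-named library 2. SLC25A5 ran from -0.28 to 0.096, the latter without BT-named library 1. With 1 library left out, the lone library of a group is assumed to vary like the others. The motif and protein sequence features were not run, since no sequences were used here. Without counts, weak regions near the lowest listed values stay undecided.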
